A study of Homo sapiens with 12 samples.

Results

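Bile acid sensing and hepatic uptake was followed through 10 genes chosen by name from 20307 gene identifiers. The set holds the bile acid receptor NR1H4 and its target NR0B2, the uptake carriers SLC10A1, SLCO1B1, SLCO1B3 and SLCO2B1, both subunits of the basolateral exporter, SLC51A and SLC51B, and the synthesis enzymes CYP7A1 and CYP27A1. All 10 symbols were matched to an identifier in the table. Of these genes 9 passed the filter on low values (1 TPM or more in 2 or more of the 12 libraries), and CYP7A1 did not. SLC10A1 and SLCO1B1 would not have passed without the resistant Huh7 libraries.

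Messenger RNA was measured as TPM, a level corrected for transcript length and for the library's total, in 12 libraries of Hep3B and Huh7, both of them established lines from human liver cancers. Each of 6 groups held 2 libraries, A1 and B1: untreated Hep3B, Hep3B with 20 µM lenvatinib, Hep3B with 20 µM WWL70, Hep3B with 20 µM WWL70 plus lenvatinib at a dose that the labels do not state, control Huh7, and lenvatinib-resistant Huh7. Lenvatinib blocks the kinase activity of VEGF, FGF and PDGF receptors, FGFR4 included, and WWL70 inhibits the serine hydrolase ABHD6. The labels give no exposure time, do not say how the resistant cells were derived or whether lenvatinib was present at harvest, and do not say whether A1 and B1 were grown as separate cultures. The p-values below therefore reflect no more than the spread between these libraries, and that spread may be technical. Combination library A1 stood apart: its median TPM over all genes was 2.96, against 4.79 to 6.92 in the other 11 libraries, and its deviation from the mean of the Hep3B controls fell with transcript length (Spearman -0.523 across genes). Against the control mean of its line, this correlation was also negative in lenvatinib A1 (-0.341) and in resistant Huh7 A1 (-0.297), and lay from -0.0982 to 0.0982 in the other 9 libraries, so it moved with A1 of every group exposed or resistant to lenvatinib; its part in the results below was not tested beyond an alternative that normalizes for length.

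NR1H4 encodes FXR, a nuclear receptor that is activated by bile acids and binds DNA as a partner of RXR. In human liver FXR raises NR0B2, whose product SHP represses CYP7A1 and SLC10A1, and it also raises SLCO1B3 and both SLC51 genes. Hepatocytes take bile acids up from portal blood through NTCP, the product of SLC10A1, and through the OATP carriers of the SLCO genes, and return them across the same membrane through the SLC51A-SLC51B exporter under bile acid load. CYP7A1 opens the main route from cholesterol to bile acids and CYP27A1 the alternative route.

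The promoters of these genes are shown because FXR is one of the members and SLCO1B3 and SLCO1B1 are paralogs. RefSeq windows of 300 bases around a gene's start, on GRCh38.p14, were at hand for 8 of the 10 genes. Both strands were searched for the FXR inverted repeat AGGTCANTGACCT with at most 2 mismatches, which 1.12% of 35116 RefSeq windows held. It was present in 3 members: SLCO1B3 with 1 mismatch, and SLC51B and SLC10A1 with 2 each. The 150 bases before the start are printed 5′ to 3′ on the strand of the gene, from chr12:20810555-20810704 (plus) for SLCO1B3, chr12:21131044-21131193 (plus) for SLCO1B1, chr15:65045237-65045386 (plus) for SLC51B and chr14:69797242-69797391 (minus) for SLC10A1. Capitals mark the match, and in SLCO1B1 the bases that align with the SLCO1B3 match.
SLCO1B3: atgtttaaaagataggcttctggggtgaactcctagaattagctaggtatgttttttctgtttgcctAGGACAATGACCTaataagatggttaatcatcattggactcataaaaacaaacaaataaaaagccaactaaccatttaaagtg
SLCO1B1: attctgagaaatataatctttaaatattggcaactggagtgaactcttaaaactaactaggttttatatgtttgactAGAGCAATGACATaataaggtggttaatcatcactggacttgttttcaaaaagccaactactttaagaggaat
SLC51B: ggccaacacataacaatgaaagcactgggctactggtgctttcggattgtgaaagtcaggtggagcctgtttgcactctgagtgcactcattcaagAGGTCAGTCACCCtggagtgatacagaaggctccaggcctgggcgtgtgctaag
SLC10A1: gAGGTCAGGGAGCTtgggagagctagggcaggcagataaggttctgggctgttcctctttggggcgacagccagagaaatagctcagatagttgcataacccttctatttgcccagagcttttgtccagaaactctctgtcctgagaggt

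The match lay from -83 to -71 relative to the start of SLCO1B3, from -54 to -42 in SLC51B and from -149 to -137 in SLC10A1. Positions counted from 1 at the 5′ end of the repeat, with the base of the repeat first, differed as T4A in SLCO1B3 and as G9C and T13C in SLC51B. The windows of SLCO1B3 and SLCO1B1 aligned over 261 bases, of which 216 (82.8%) were identical, and the aligned SLCO1B1 bases had G3A, T4G and C12A, which is more mismatches than the search allowed. The direct repeat AGGTCANAGGTCA with at most 2 mismatches (2.97% of windows) and the NR5A2 site CAAGGTCA (1.28% of windows) were in none of the 8 genes' windows. A match describes letters only and was not tested for binding.

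**Figure D1:**
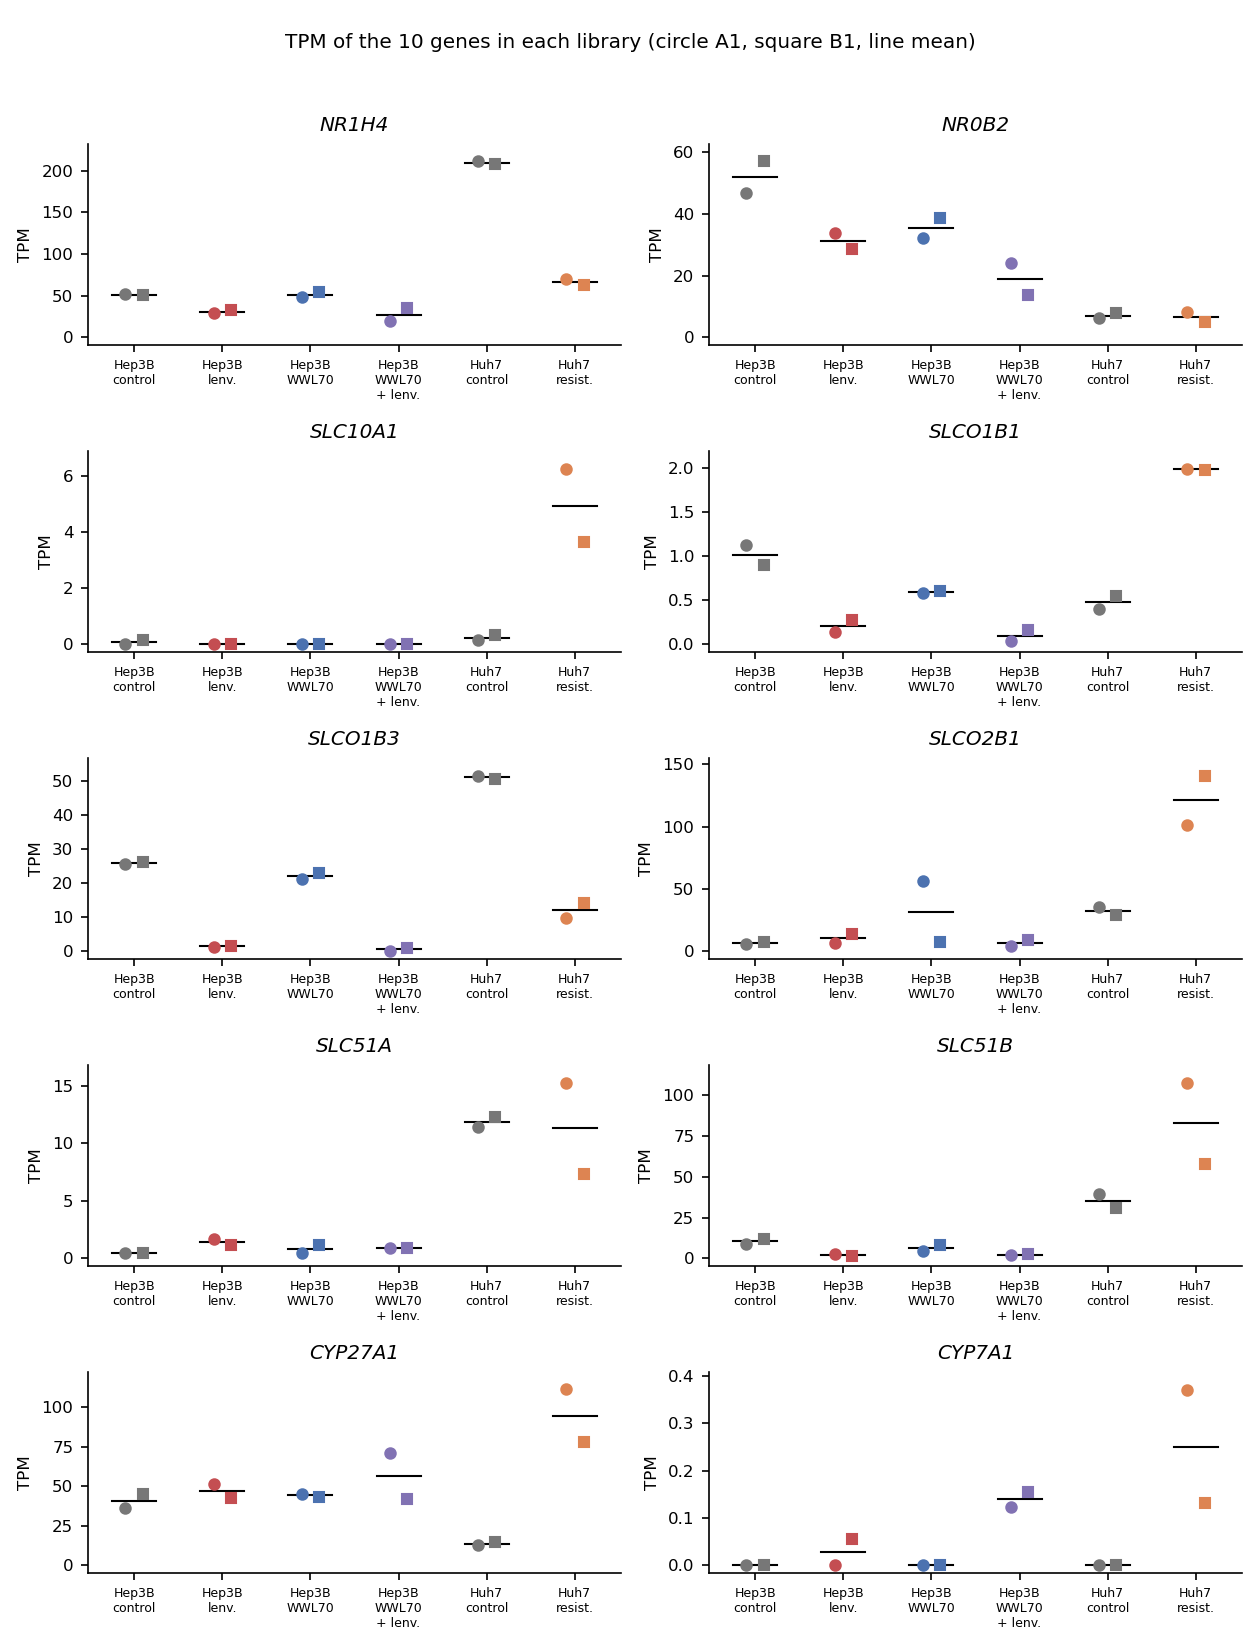
TPM (vertical axis, linear, a scale for each gene) of the 10 genes in each of the 12 libraries, by group on the horizontal axis; circles are A1, squares B1 and lines the mean of both. SLCO1B3 lies at or under 1.44 TPM in all 4 libraries of Hep3B treated with lenvatinib, alone or with WWL70. SLC10A1 is above 1 TPM only in both resistant Huh7 libraries.

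The receptor came first. NR1H4 stood at 51.7 TPM in A1 and 50.8 in B1 of untreated Hep3B, at 29.4 and 32.2 with lenvatinib, at 48.8 and 53.8 with WWL70, and at 19.5 and 34.8 with both compounds. Both lenvatinib libraries and both combination libraries lay below both controls, while the WWL70 libraries lay on either side of them. In Huh7 it stood at 212 and 208 TPM in controls and at 69.9 and 62.3 in resistant cells, so that the receptor was at its highest in control Huh7 and the 2 groups were far apart.

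In resistant Huh7 NR1H4 fell by 1.66 on the log2(TPM + 1) scale (SE 0.24; limma, adjusted p = 0.00155), to 0.315 of the control mean. All fold changes below are on that scale, which understates changes at low TPM. The fall held in all 22 alternatives and left-out libraries, with log2 changes from -1.74 to -1.56. With both compounds in Hep3B it fell by 0.95 (SE 0.24, limma adjusted p = 0.0447), a call that held in 7 of 22 settings; it was lost, for example, with median-ratio scaling (log2 change -0.52, adjusted p = 0.0828). With lenvatinib alone the log2 difference was -0.72 (95% interval -1.26 to -0.17, limma adjusted p = 0.202), and it was called in 4 of 22 settings, 2 of which left out a combination library (adjusted p = 0.00556 without A1 and 0.00536 without B1). With WWL70 alone it was 0.00 (-0.54 to 0.54).

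NR0B2, the repressor SHP, had 46.6 TPM in A1 and 57.2 in B1 of untreated Hep3B. It had 33.7 and 28.5 with lenvatinib, 32.3 and 38.8 with WWL70, and 24.0 and 13.7 with both. Every treated Hep3B library lay below both controls, and the combination lay below both single compounds. In Huh7 its level was 6.16 and 7.70 TPM in controls and 8.01 and 4.95 in resistant cells, which overlapped. With both compounds it fell by 1.46 (SE 0.31, limma adjusted p = 0.0248; called in 14 of 22 settings). The difference was -0.72 with lenvatinib (interval -1.42 to -0.01, adjusted p = 0.362), -0.53 with WWL70 (-1.24 to 0.17) and -0.11 in resistant Huh7 (-0.81 to 0.60, limma adjusted p = 0.859). Leaving out resistant library B1 turned the last value to 0.19.

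The 2 lines held the receptor and its target in opposite order. NR1H4 was 4.10 times as high in control Huh7 as in control Hep3B (log2 difference 2.01, SE 0.24, limma adjusted p = 0.000232). NR0B2 was 7.495 times as high in control Hep3B (log2 difference -2.74 for Huh7 against Hep3B, SE 0.31, adjusted p = 0.000171). Both calls held in all 21 settings in which this comparison could be made.

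Among the uptake carriers SLCO1B3, the OATP1B3 gene, had the largest log2 change with lenvatinib and with both compounds. It is annotated at chr12:20810702-20916911 (GENCODE 29, plus strand). Its level was 25.6 TPM in A1 and 26.2 in B1 of untreated Hep3B and 1.38 and 1.44 with lenvatinib. WWL70 libraries had 21.2 and 22.9, and those with both compounds 0.058 and 1.03. The lenvatinib and combination libraries lay far below the controls, with no overlap, and the WWL70 libraries just below them. The 2 combination libraries differed widely on a relative scale, since A1 was close to 0.

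With lenvatinib SLCO1B3 fell to 0.0546 of the control mean, a log2 change of -3.48 (SE 0.31, limma adjusted p = 0.00206). With both compounds the change was -4.20 (SE 0.31, limma adjusted p = 0.000262). Both calls held in all 22 settings, over which the adjusted p reached at most 0.0379 for lenvatinib and 0.00932 for the combination. With WWL70 the difference was -0.22 (interval -0.93 to 0.48). These 3 comparisons share the same 2 control libraries.

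SLCO1B3 was also lower in resistant Huh7, at 9.82 and 14.1 TPM against 51.5 and 50.6 in controls. The groups did not overlap, and the fall was to 0.235 of the control mean (log2 change -2.02, SE 0.31, limma adjusted p = 0.00211). It was called in 21 of 22 settings, the exception being a pseudocount of 0.1 (adjusted p = 0.0800). Control Huh7 held 1.97 times the level of control Hep3B (log2 difference 0.95, SE 0.31, adjusted p = 0.0420), a call made in 10 of 21 settings.

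SLCO1B1, the OATP1B1 gene and a close paralog on the same chromosome (chr12:21131202-21239246, plus strand), was low in every library. It had 1.12 and 0.904 TPM in untreated Hep3B, 0.136 and 0.273 with lenvatinib, 0.580 and 0.605 with WWL70, and 0.032 and 0.160 with both. All treated Hep3B libraries lay below both controls. Huh7 controls had 0.404 and 0.552 TPM and resistant cells 1.99 and 1.98, the highest values of the series for this gene.

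SLCO1B1 thus rose in resistant Huh7, where SLCO1B3 fell. The log2 change was 1.02 (SE 0.14, limma adjusted p = 0.00132). The gene passed the filter on low values only through the resistant libraries, where it is high, so that its being tested rests on them; with no filter the limma adjusted p was 0.000331. In Hep3B it fell by 0.74 with lenvatinib (SE 0.14, limma adjusted p = 0.0352; called in 8 of 21 settings) and by 0.88 with both compounds (adjusted p = 0.00886; 18 of 21). The read-through gene SLCO1B3-SLCO1B7 had between 0 and 1.24 TPM. Counting could have divided reads between these paralogs, and the assignment of multiply mapping reads was not given in the sources used here.

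SLC10A1, the NTCP gene, was nearly silent outside resistant Huh7. In Hep3B it was listed at 0 in 7 of 8 libraries and at 0.157 TPM in control B1. Huh7 controls had 0.140 and 0.320 TPM, and resistant cells had 6.26 and 3.63. The resistant libraries lay far above all others and differed between themselves by 0.65 (log2). SLC10A1 rose by 2.24 (SE 0.20, limma adjusted p = 0.000101), to 21.5 times a control mean that rests on values near 0, and it too passed the filter only through the resistant libraries. With no filter the limma adjusted p was 0.000106.

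SLCO2B1, the OATP2B1 gene, had 6.02 and 7.72 TPM in untreated Hep3B, 6.83 and 14.1 with lenvatinib, and 4.31 and 8.90 with both compounds. With WWL70 A1 had 56.1 TPM and B1 7.65. All Hep3B groups overlapped, and A1 of WWL70 stood far above the other 7 Hep3B libraries. A log2 difference of 2.72 between the libraries of that group was reached by 3 of 13645 tested genes, SLCO2B1 included. An antisense gene overlaps SLCO2B1, and use of strand in the counting was not given in the sources used here.

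In Huh7 SLCO2B1 had 35.5 and 28.9 TPM in controls and 101 and 141 in resistant cells, without overlap. The log2 difference was 1.86 (SE 0.75, interval 0.17 to 3.56) and was not called (limma adjusted p = 0.125). The spread was shared over all groups, and the value without WWL70 library A1 was the same with an adjusted p of 0.0210. With WWL70 the difference was 1.51 (interval -0.19 to 3.21), and without A1 it was 0.15.

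**Figure D2:**
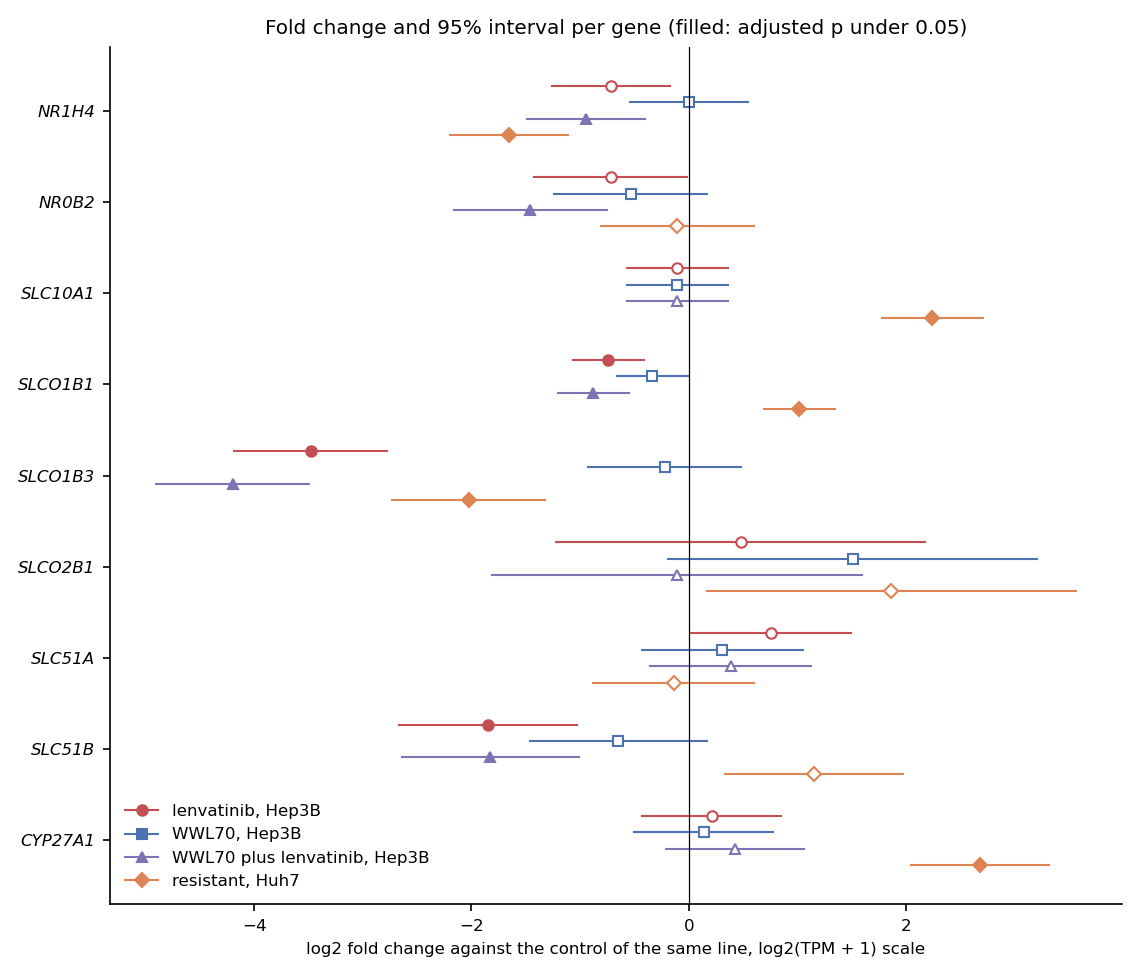
Log2 fold change against the control of the same line on the log2(TPM + 1) scale (horizontal axis) for the 9 tested genes (vertical axis), with 95% intervals from limma; filled symbols have an adjusted p under 0.05. SLCO1B3 is called in 3 of the 4 comparisons, from -4.20 to -2.02, SLCO1B1 is negative with lenvatinib and positive in resistant Huh7, and no WWL70 value is called.

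The exporter subunits SLC51A and SLC51B, which encode OSTα and OSTβ, work as a pair. Only SLC51B was called with lenvatinib or with both compounds, and both were higher in Huh7 than in Hep3B; whether the subunits differed in response was not tested. SLC51B had 9.02 and 11.6 TPM in untreated Hep3B, 2.60 and 1.71 with lenvatinib, 4.61 and 8.15 with WWL70, and 1.93 and 2.42 with both. All treated libraries lay below both controls. Huh7 controls had 39.7 and 30.9 TPM and resistant cells 108 and 58.1, without overlap.

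SLC51B fell by 1.85 with lenvatinib (SE 0.36, limma adjusted p = 0.0355) and by 1.83 with both compounds (SE 0.36, adjusted p = 0.0190). The first call was made in 11 of 22 settings and the second in 19. In resistant Huh7 the log2 difference was 1.15 (interval 0.34 to 1.97, limma adjusted p = 0.0553), with 0.71 after resistant A1 was left out and 1.59 after B1 was, the latter with an adjusted p of 0.0389.

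SLC51A had 0.430 and 0.425 TPM in untreated Hep3B, 1.72 and 1.13 with lenvatinib, 0.424 and 1.19 with WWL70, and 0.873 and 0.858 with both. The lenvatinib and combination libraries lay above both controls, all at or under 1.72 TPM. The difference with lenvatinib was 0.75 (interval 0.02 to 1.49, limma adjusted p = 0.360). In Huh7 SLC51A had 11.4 and 12.3 TPM in controls and 15.3 and 7.32 in resistant cells, which overlapped (log2 difference -0.14, interval -0.88 to 0.60). Control Huh7 held 27.7 times the SLC51A level of control Hep3B (limma adjusted p = 9.31e-05) and 3.43 times the SLC51B level (adjusted p = 0.00617).

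The 2 synthesis enzymes stood at opposite ends of the scale. CYP7A1 was listed at 0 in 7 of 12 libraries and never passed 0.370 TPM, its level in resistant A1; resistant B1 had 0.131 and the combination libraries 0.124 and 0.155. It was not tested. CYP27A1, a mitochondrial sterol 27-hydroxylase, had 36.0 and 44.9 TPM in untreated Hep3B, 51.3 and 42.5 with lenvatinib, 45.3 and 43.4 with WWL70, and 70.9 and 41.6 with both. These groups overlapped, and the log2 differences from control were 0.21, 0.14 and 0.42 with intervals that all included 0.

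In Huh7 CYP27A1 went from 12.5 and 14.97 TPM in controls to 111 and 77.9 in resistant cells. The groups were widely separated, and the rise was to 6.88 times the control mean (log2 change 2.68, SE 0.28, limma adjusted p = 0.000233; called in all 22 settings). Control Huh7 lay below control Hep3B (log2 difference -1.49, adjusted p = 0.00323), while resistant Huh7 was the highest group for this gene.

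Counted over the 10 genes, lenvatinib in Hep3B gave 0 rises and 3 falls (SLCO1B3, SLCO1B1, SLC51B) among the 9 tested, where 2.48% of all tested genes were called. WWL70 gave no call by limma, where 0.0147% of all genes were called. At an unadjusted limma p under 0.05 it had 1 of 9 members, beside 392 of 13645 tested genes. Both compounds against control gave 5 falls (those 3, NR1H4 and NR0B2) and no rise, against a background of 8.85%. Both compounds against lenvatinib alone gave no call by limma, against a background of 0.022%. At an unadjusted limma p under 0.05 that comparison had 2 of 9 members, beside 1518 of 13645 tested genes.

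Resistant Huh7 gave 3 rises (SLC10A1, SLCO1B1, CYP27A1) and 2 falls (NR1H4, SLCO1B3) against 18.9% of all genes, and 5 rises and 2 falls after normalizing for transcript length. Control Huh7 against control Hep3B gave 4 genes higher and 3 lower against 34.4%; median-ratio scaling gave 5 higher and 2 lower, and rescaling without the 50 most abundant genes 3 and 3. The median log2 change of the tested members was -0.72 with lenvatinib and -0.88 with both compounds, against -0.07 and -0.34 over all tested genes. SLC10A1 and SLCO1B1, among the rises in resistant Huh7, were tested only through the group in which they are high, so no median is given there. The Hep3B medians include both of these genes, and -0.88 is the value of SLCO1B1 itself. SLCO1B1 is also among the falls counted in Hep3B. The members were chosen by name, with earlier results of these data known, and their counts and medians are descriptions.

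The median of all genes moved from -0.34 to 0 in the combination, and from -0.16 to 0.01 between the lines, under median-ratio scaling. Relative to the median of all genes, the combination's changes were -3.86 for SLCO1B3, -1.49 for SLC51B, -1.12 for NR0B2, -0.61 for NR1H4 and -0.54 for SLCO1B1. With combination A1 left out, SLCO1B3 had a log2 change of -3.73 and NR1H4 of -0.54. With B1 left out, both compounds against lenvatinib alone gave -1.19 for SLCO1B3 and -0.63 for NR1H4. Without B1 the log2 change of CYP27A1 in the combination against control was 0.86. The values without B1 rest on A1, which had the lowest median TPM of the series, 2.96. The median change of all genes without B1 is not given here, so the part of a general shift was not tested.

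Whether resistance in Huh7 and lenvatinib in Hep3B moved these genes differently was tested as a difference of both effects, in which cell line and type of exposure cannot be told apart. The difference was called for 4 of the 9 tested genes, all in the positive direction. Over all genes 6.3% were called, and 80.6% of those calls were positive. The difference was 3.0 for SLC51B (SE 0.51, limma adjusted p = 0.00825), 2.47 for CYP27A1 (SE 0.40, adjusted p = 0.00642), 2.35 for SLC10A1 (SE 0.29, adjusted p = 0.00169) and 1.76 for SLCO1B1 (SE 0.20, adjusted p = 0.00119). SLC10A1 and SLCO1B1 passed the filter on low values only through the resistant libraries, where they are high. Median-ratio scaling gave 4 positive and 1 negative call. The difference was 1.45 for SLCO1B3 (interval 0.46 to 2.45, limma adjusted p = 0.1004) and -0.94 for NR1H4 (interval -1.71 to -0.17, adjusted p = 0.173). For both genes, both lenvatinib libraries and both resistant libraries lay below the controls of their line.

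**Figure D3:**
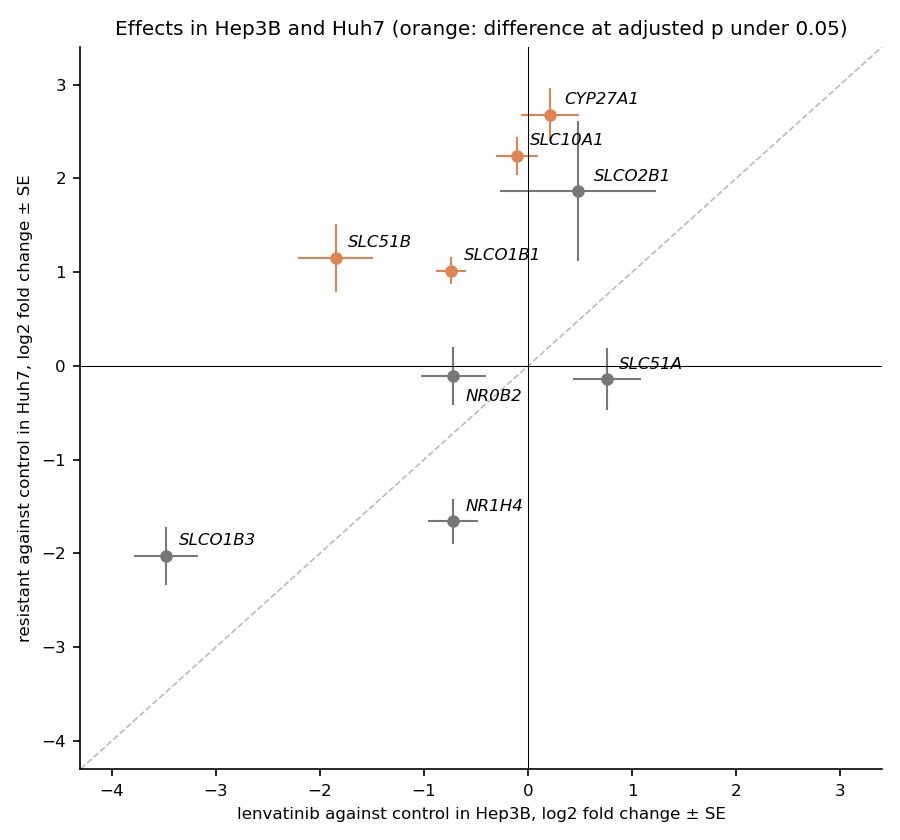
Log2 fold change ± SE of lenvatinib in Hep3B (horizontal axis) and of resistance in Huh7 (vertical axis) for the 9 tested genes; the dashed line marks equal effects and orange points have a called difference. SLC51B and SLCO1B1 lie to the left of 0 and above it, SLCO1B3 and NR1H4 lie below 0 on both axes, and CYP27A1 and SLC10A1 lie near 0 in Hep3B and above 2 in Huh7.

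The order of the groups differed from gene to gene. NR1H4 and SLCO1B3 were highest in control Huh7, without overlap with any other group, and lowest with both compounds, where NR1H4 overlapped the lenvatinib group. SLC10A1, SLC51B, SLCO1B1, SLCO2B1 and CYP27A1 were highest in resistant Huh7, without overlap with the next group. CYP7A1 was too, but overlapped the combination. Of these, SLC10A1 and SLCO1B1 passed the filter on low values only through resistant Huh7. The share of all genes with such an order was not counted, so the orders are descriptions. NR0B2 was highest in untreated Hep3B and lowest in resistant Huh7, which overlapped control Huh7. For SLC51A the 2 Huh7 groups overlapped and stood above every Hep3B library.

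Over the 12 libraries and 10807 genes with a mean TPM of at least 5, the genes whose log2 levels were most like each member's are given by Pearson r, as a description of libraries that share lines and treatments. For NR1H4 they were LPAR6 (0.994), VBP1 (0.993) and VRK1 (0.985), and for NR0B2 TTYH1 (0.983), ERCC1 (0.976) and GDF15 (0.974). For SLCO1B3 they were GHITM (0.971), HYOU1 (0.970) and CALR (0.967), and for SLCO1B1 BCL2L1 (0.960), SPX (0.959) and COL14A1 (0.951). SLC10A1 was most like PHGR1 (0.995), ENPP7 (0.994) and HSD3B1 (0.993), SLCO2B1 like ASAH2 (0.956), SYT7 (0.939) and SCAMP2 (0.934). SLC51A was most like GGH (0.978), TSR2 (0.975) and NDUFV2 (0.975), SLC51B like SURF4 (0.987) and SPINK1 (0.986), and CYP27A1 like ACP5 (0.983), C4BPB (0.977) and SEMA3B (0.972).

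The other genes of the pathway place these members in context. Their lists, too, were chosen with earlier results of these data known, so the shares called are descriptions. Among 15 further synthesis genes, 12 of which were tested, lenvatinib and the combination each called 1 in Hep3B, AKR1D1, the bile acid 5β-reductase, which rose from 0.270 ± 0.009 TPM (SD, n = 2) to 4.70 ± 0.462 with lenvatinib (limma adjusted p = 0.0103) and to 4.01 ± 2.39 with both (adjusted p = 0.00838). That is 8.33% of those tested, against 2.48% of all genes with lenvatinib and 8.85% with both. In resistant Huh7 5 rose and 2 fell, 58.3% of those tested against 18.9% of all genes. The largest rises were AKR1D1, from 6.18 ± 0.759 to 78.3 ± 5.77 TPM (adjusted p = 8.41e-05), BAAT, which conjugates bile acids to glycine or taurine, from 1.53 ± 0.453 to 18.3 ± 4.18 (adjusted p = 0.00183), and the fatty acyl-CoA ligase SLC27A2, from 5.83 ± 1.86 to 23.6 ± 5.85 (limma adjusted p = 0.00147). In Hep3B BAAT had a log2 difference of 1.13 with lenvatinib (SE 0.44, adjusted p = 0.292). CYP8B1, the sterol 12α-hydroxylase, was at or under 0.609 TPM throughout and was not tested.

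Of 10 export genes, 9 were tested. None was called with lenvatinib or with both compounds, and in resistant Huh7 3 rose and 1 fell (44.4% against 18.9% of all genes). Of the rises, ABCG5, a sterol transporter subunit at 0.560 TPM or less outside resistant Huh7, was tested only through the resistant libraries. The basolateral pump ABCC3 rose from 6.08 ± 0.128 to 45.4 ± 10.9 TPM (limma adjusted p = 0.000241) and the drug exporter ABCB1 from 26.2 ± 2.63 to 157 ± 29.2 (adjusted p = 0.00449). The phospholipid floppase ABCB4 fell from 20.6 ± 2.45 to 8.14 ± 1.54 (adjusted p = 0.0240). ABCB11, the canalicular bile salt export pump and a target of FXR, stayed at or under 1.28 TPM in all libraries and was not tested. Of 12 other uptake carriers, 8 were tested, and SLC22A7, an organic anion transporter, rose with lenvatinib in Hep3B, from 6.77 ± 0.425 to 22.1 ± 3.80 TPM (limma adjusted p = 0.0262), and in resistant Huh7, from 0.925 ± 0.605 to 6.19 ± 1.64 (adjusted p = 0.00164). It was the 1 carrier of that list called in each. That is 12.5% of those tested, against 2.48% of all genes with lenvatinib and 18.9% in resistant Huh7.

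Among 18 receptors, partners and regulators, 17 were tested. Lenvatinib called none of them, and both compounds called a fall of MAFG, a transcriptional repressor, from 26.2 ± 0.460 to 10.99 ± 5.58 TPM (limma adjusted p = 0.0425). With both compounds that is 5.88% of those tested, against 8.85% of all genes. In resistant Huh7 3 of the 17 were called, 17.6% against 18.9% of all genes, a share near the background. NR1I2, which encodes PXR, rose from 0.735 ± 0.039 to 12.3 ± 1.14 TPM (limma adjusted p = 3.71e-06) and VDR from 0.516 ± 0.349 to 4.19 ± 1.19 (adjusted p = 0.000556). Both nuclear receptors passed the filter only through the resistant libraries. FGFR4, the hepatocyte receptor of the bile acid feedback hormone FGF19, fell from 314 ± 10.6 to 224 ± 0.146 TPM (adjusted p = 0.0264). No call was made in resistant Huh7 or with lenvatinib for FGF19, the FGFR4 partner KLB, the FXR partner RXRA or HNF4A. For RXRA the log2 difference in resistant Huh7 was 0.45 (SE 0.22, limma adjusted p = 0.197), and for HNF4A 0.32 (SE 0.36, adjusted p = 0.594).

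Further FXR targets of human liver moved in both directions. Of 11, 10 were tested: 3 rose and 1 fell with lenvatinib, 3 rose and 2 fell with both compounds, and 3 rose and 3 fell in resistant Huh7. These are 4, 5 and 6 of the 10 tested, where 2.48%, 8.85% and 18.9% of all genes were called. SULT2A1, a sulfotransferase that acts on bile acids, rose from 6.58 ± 1.23 to 39.3 ± 3.82 TPM with lenvatinib (limma adjusted p = 0.00213) and from 23.8 ± 0.022 to 113 ± 12.4 in resistant Huh7 (adjusted p = 0.000180). KNG1, kininogen, rose from 77.9 ± 0.252 to 352 ± 16.4 TPM with lenvatinib (limma adjusted p = 0.00119), and FETUB fell from 9.01 ± 1.36 to 1.51 ± 0.636 with both compounds (adjusted p = 0.00265). WWL70 alone called no gene of any of these 5 lists by limma.

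**Figure D4:**
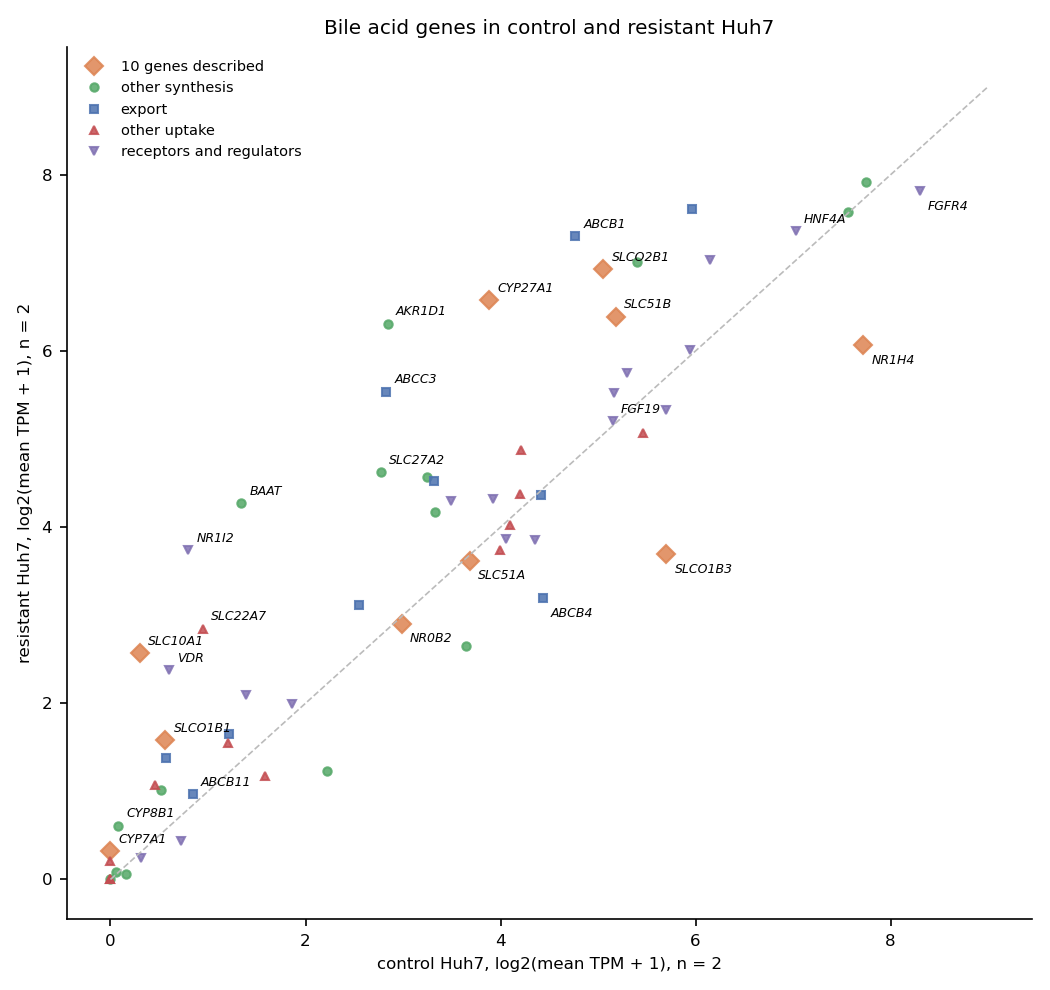
Mean level of the 10 genes and 4 further lists in control Huh7 (horizontal axis) and resistant Huh7 (vertical axis), both as log2(mean TPM + 1) over 2 libraries; the dashed line marks equal levels and selected genes are named. CYP27A1, SLC10A1, AKR1D1, BAAT, ABCC3, ABCB1 and NR1I2 lie above the line, and NR1H4, SLCO1B3 and ABCB4 below it.

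Both lines carried the hepatocyte program, with albumin at 10323 TPM or more in every library. The summed level of 9 hepatocyte markers was 31955 to 32121 TPM in untreated Hep3B, 49760 to 50995 with lenvatinib, 69176 to 71635 with both compounds, 39348 to 41076 in control Huh7 and 53095 to 58872 in resistant Huh7. With WWL70 the sum was 28334 to 34486 TPM. Of these 9 markers, 2 rose with lenvatinib, 22.2% against 2.48% of all genes. With both compounds 5 rose, 55.6% against 8.85%. In resistant Huh7 2 of these 9 rose and 1 fell, 33.3% against 18.9% of all genes. Of 7 cholangiocyte markers, 6 were tested and 4 rose and 1 fell in resistant Huh7, 83.3% against 18.9% of all genes. Their sum there was 665 to 837 TPM against 224 to 240 in controls, with KRT7 listed at 0 in both groups. In Hep3B the sum was 877 to 957 TPM in controls and 1065 to 1213 with lenvatinib. It was 798 to 814 with WWL70 and 1128 to 1425 with both compounds. Fibroblast markers summed to 41.1 to 51.7 TPM against 20.5 to 21.2, with 3 of 5 tested rising (60%). COL1A1 and COL3A1 in that list, and the cholangiocyte marker CFTR, would not have passed the filter without the resistant libraries. Leukocyte markers summed to 98.2 to 103 TPM against 530 to 557 in controls, mostly LYZ, with PTPRC at or under 0.518 TPM. Of 3 leukocyte markers tested, 1 rose and 1 fell (66.7%). Endothelial markers summed to at most 11.97 TPM in any library, with KDR listed at 0 throughout. The part of these markers in the changes above was not tested, and in bulk RNA fewer cells of a kind and less RNA per cell cannot be told apart.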

How the data were processed

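Total RNA was extracted with Trizol and mRNA was captured on beads before Illumina sequencing, per the labels' protocols. The tool fastp 0.18.0 and the build hg38 are named, per the submitters' processing notes. An aligner, quantifier or annotation was not given in the sources used here. TPM values, deposited by the authors, cover 20307 Ensembl identifiers in 12 columns, each summing to 1000000. TPM does not record depth, so no counting interval was derived.

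Symbols came from a table of gene names (19702 identifiers matched), and positions from GENCODE 29 (GRCh38). A limma-trend model (limma 3.58.1, R 4.3.3) was fitted to log2(TPM + 1), a pseudocount of 1, of the 13645 genes that reached 1 TPM in 2 or more libraries. It held all 12 libraries and a mean per group, with residual degrees of freedom of 6 and prior degrees of 2.91. P-values were adjusted by the Benjamini-Hochberg method over all tested genes in each of 7 comparisons, with calls at 0.05. The fit was tested on simulated data with 1 spread for all libraries, taken from the Hep3B controls. In the real libraries the median absolute log2 difference between A1 and B1 was 0.114 in Hep3B controls. It was 0.755 in the combination and 0.324 in resistant Huh7. The simulation therefore cannot show how the calls behave when groups differ in spread.

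The members and lists were chosen with earlier results of these data known. All members are named, with at most 3 called genes of the largest change per other list and comparison, and FGF19, FGFR4, KLB, ABCB11, CYP8B1, BAAT, RXRA and HNF4A whatever their result. Some items that these rules or searches cover are not reported here. Alternatives were other pseudocounts, filters, scalings, weights and fits, a replicate block, and each library left out.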

Additional observations from a re-analysis of the deposited data

Results flagged for a closer look

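The effect of resistance in Huh7 and that of lenvatinib in Hep3B differed, by a test of the difference itself, for 4 members. Over all tested genes 6.3% were called, and 80.6% of those calls were positive. The log2 difference was 3.0 for SLC51B (limma adjusted p = 0.00825), with both resistant libraries above both Huh7 controls and both lenvatinib libraries below both Hep3B controls. It was 2.468 for CYP27A1 (limma adjusted p = 0.00642), 2.346 for SLC10A1 (adjusted p = 0.00169) and 1.758 for SLCO1B1 (adjusted p = 0.00119). The lenvatinib effect on CYP27A1 was 0.21 and that on SLC10A1 -0.11, neither of them called. The differences for SLC51B and CYP27A1 were called in all 21 settings. SLC10A1 and SLCO1B1 passed the filter on low values only through the resistant libraries; with no filter the limma adjusted p was 0.00138 and 0.000317.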

How the results depend on the processing

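No call of a member reversed in direction under any alternative. Lenvatinib's 3 calls became 1 with a pseudocount of 5, 1 within the cell line and 5 with array weights, and ranged from 1 to 4 with a library left out. The combination's 5 became 3 with median-ratio scaling, 1 with array weights and 3 within the cell line, and ranged from 1 to 6. Its comparison with lenvatinib had 0 calls and ranged from 0 to 2. Under the filter at TPM 5 the 5 calls of resistant Huh7 became 3 and the 4 differences between effects became 2, since SLC10A1 and SLCO1B1 were then not tested. The 7 calls between the lines ranged from 4 to 8 with a library left out. SLCO1B3 was called with lenvatinib in every one of these settings.

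Over all genes the count of calls moved by more than 1.5 times. Without a library it was lowest without a Hep3B control, and highest without a combination library, in the lenvatinib and combination comparisons. It was 338 with lenvatinib (25 to 2249 over all alternatives), 2 with WWL70 (0 to 285), 1208 with both (56 to 8667), 3 for both against lenvatinib (0 to 7823), 2579 in resistant Huh7 (1180 to 5431), 4688 between lines (2923 to 9472) and 860 for the difference (414 to 2240). The 3 calls of both compounds against lenvatinib, all rises, became 0 with median-ratio scaling and 5 rises and 5 falls with length normalization. The share of rises among calls went from 55.6% to 67.4% with lenvatinib after rescaling without the most abundant genes. Under median-ratio scaling it went from 27.6% to 48.3% with both compounds and from 38.6% to 49.4% between lines, and with length normalization from 80.6% to 70.2% for the difference.

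With the replicate block the member counts were 3, 0, 5, 0, 5, 6 and 4 in the order of these comparisons, where the lines had lost SLCO1B1 (adjusted p = 0.0502). The letters were not shown to pair the samples: deviations of A1 from B1 correlated at 0.616 to 0.739 among the lenvatinib, combination and resistant groups and at -0.124 to 0.067 in all other pairs.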

Other observations

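Beside the members and lists, SLCO2A1, the prostaglandin transporter of the OATP family, was looked at after its values were seen. It had 1.94 TPM in A1 and 1.83 in B1 of control Huh7, and 16.2 and 17.1 in resistant Huh7, while all 8 Hep3B libraries lay at or under 0.557 TPM. The log2 change in resistant Huh7 was 2.62 (SE 0.17, limma adjusted p = 1.68e-05), where 18.9% of all genes were called. The log2 difference of -0.02 with lenvatinib in Hep3B was not called (limma adjusted p = 0.990). Further genes of the SLCO and SLC10 families were looked at as well. In resistant Huh7 SLCO6A1, SLC10A3 and SLC10A7 were not called, and SLCO1C1 and SLCO1B3-SLCO1B7 were not tested. SLCO1A2, another OATP carrier that takes up bile acids and a neighbour of SLCO1B1 in the same gene cluster, had 15.4 and 14.6 TPM in control Huh7 and 9.57 and 15.1 in resistant Huh7, and was at or under 0.022 TPM in every Hep3B library.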
